A study of Bos taurus with 2 samples.

Results

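The genes of programmed cell death and of TNF signalling were read from 61 genes of the bovine array, out of 32429 gene names. They were taken by a rule on names: CASP or BIRC followed by a digit, names that start with BCL2, TNFRSF or TNFSF, and BAX, BAK1, BID, BAD, BIK, MCL1, XIAP, APAF1, FAS and FASLG. The rule was set with earlier results of these data known. They comprised 9 caspases, CASP8AP2 (a caspase-8 associated protein that the name rule also takes), APAF1, 6 inhibitors of apoptosis, 15 members of the BCL2 family, 12 ligands and 17 receptors of the TNF superfamily. Of the 51282 probes that were not controls, 119 carried one of these names, and they lay on 128 of 61657 spots. Of the gene names, 60 stood in the RefSeq gene table of assembly ARS-UCD2.0, and TNFRSF10A did not.

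The study compared the testis of crossbred bulls, which often have poor semen quality, with that of Zebu bulls. The crossbred group was 3 Holstein Friesian crossbred bulls (Bos taurus x Bos indicus) and the Zebu group 3 bulls of the Tharparkar breed (Bos indicus). By the methods of the paper all were 24 months old, and the labels name no treatment. The bulls were sedated and given a local anaesthetic before surgery. The right testis was removed by unilateral castration, and RNA from slices of its middle was pooled in equal amounts within each group. The Cy3-labelled cRNA of each pool went onto 1 array, so each group is 1 measurement of 3 bulls, replicates are lacking and no test between the groups was possible. The array is a Bos taurus array, and the match of its probes to the sequences of each group was not tested.

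Apoptosis runs along a pair of routes that meet at the caspases, proteases that are made as inactive precursors. In the mitochondrial route, BH3-only proteins such as BIM (gene BCL2L11) and BID free the effectors BAX and BAK1 from survival proteins such as BCL2 and MCL1, cytochrome c leaves the mitochondria, and APAF1 assembles the apoptosome that activates caspase-9. In the receptor route, ligands of the TNF superfamily bind death domain receptors such as FAS and activate caspase-8, and both routes end at the executioner caspases, which XIAP restrains. In the testis many germ cells die by apoptosis in every wave of spermatogenesis, male mice that lack BAX or BCL2L2 are sterile, and FAS ligand has long been studied there as a signal to germ cells and to lymphocytes.

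A level is the log2 of the processed signal of a probe minus the 75th percentile of its array, and a difference is the crossbred level minus the Zebu level on that log2 scale. Levels of different probes were compared only to pick the brightest probe of a gene, to call probes dim, and in sums of marker levels. A probe was called detected where the scanner software marked it as well above background in 1 pool or both, and a gene was read from its brightest probe. The software marked 72.0% (crossbred) and 74.3% (Zebu) of the non-control spots in this way, and the lowest levels so marked were -5.78 and -5.94. Spots of the same probe differed by an SD of 0.29 (crossbred) and 0.18 (Zebu), or 0.34 for a difference, over the 5960 probes with several spots; this SD covers spotting and scanning only. Genes with a difference of at least 1.5 or at most -1.5, detected in the pool with the higher level, are called higher or lower. Markers of spermatids, spermatocytes, spermatogonia, Sertoli cells and Leydig cells that are on the array were all detected, which fits the label testis, and their differences are given at the end.

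Every probe is 60 bases long, and the probes on which the results turn are printed below 5′ to 3′ in lower case, with no letters in capitals because the whole probe binds its target. Their positions are those of the array annotation, on the build HGSC Btau_3.1, and the start within the target transcript is given from its first base. The probes of the genes that passed the threshold are shown first, because several of these genes rest on 1 probe, and those of MCL1 follow because they are set side by side later. FASLG had 3 probes, all on the plus strand of chromosome 16. The first lay at chr16:36827404-36827463 (start 962 in the target), the second at chr16:36827172-36827231 (start 730) and the third at chr16:36828216-36828275 (start 1774).
FASLG (1): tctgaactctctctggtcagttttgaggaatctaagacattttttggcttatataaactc
FASLG (2): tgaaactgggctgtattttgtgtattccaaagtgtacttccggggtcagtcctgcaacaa
FASLG (3): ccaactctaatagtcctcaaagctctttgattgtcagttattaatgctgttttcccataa
BCL2L11, BCL2L14 and BCL2L15 had 1 probe each. That of BCL2L11 lay at chr11:1256479-1256538 on the minus strand (start 814) and that of BCL2L15 at chr3:31962734-31962793 on the plus strand (start 696). The BCL2L14 probe (start 1489) has no position in the annotation.
BCL2L11: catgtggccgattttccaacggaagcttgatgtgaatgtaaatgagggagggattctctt
BCL2L14: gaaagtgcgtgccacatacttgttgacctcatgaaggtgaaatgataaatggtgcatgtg
BCL2L15: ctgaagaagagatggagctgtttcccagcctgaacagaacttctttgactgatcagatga
The other genes past the threshold were TNFRSF19 at chr12:34772984-34773043, TNFSF18 with a probe at chr16:37335500-37340944 (start 287) and another at chr16:37329959-37330018 (start 3377), and TNFSF9 at chr7:16505697-16505757, all on the minus strand. The first TNFSF18 probe has ends that lie much farther apart than its length, so that the annotation places it across a splice junction.
TNFRSF19: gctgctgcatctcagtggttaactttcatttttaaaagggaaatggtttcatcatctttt
TNFSF18 (1): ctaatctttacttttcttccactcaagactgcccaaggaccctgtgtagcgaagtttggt
TNFSF18 (2): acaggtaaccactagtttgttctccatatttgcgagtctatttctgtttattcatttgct
TNFSF9: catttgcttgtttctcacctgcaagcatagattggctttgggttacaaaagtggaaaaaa
The 3 MCL1 probes lay on the plus strand of chromosome 3, the first at chr3:21670966-21671025 (start 3650), the second at chr3:21667737-21668333 across a junction (start 955) and the third at chr3:21667543-21667602 (start 761).
MCL1 (1): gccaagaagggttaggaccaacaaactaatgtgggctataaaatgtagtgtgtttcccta
MCL1 (2): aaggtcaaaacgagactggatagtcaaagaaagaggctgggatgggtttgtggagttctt
MCL1 (3): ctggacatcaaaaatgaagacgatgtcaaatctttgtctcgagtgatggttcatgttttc

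Of the 61 genes, 56 were detected, 54 of them on both arrays, TNFRSF19 on the crossbred array only and TNFSF12 on the Zebu array only. BIRC7, CASP14, TNFRSF11A, TNFRSF11B and TNFSF11 were not well above background in either pool. FASLG, BCL2L11, BCL2L14, BCL2L15, TNFRSF19 and TNFSF18 were higher in crossbred testis, which is 6 of 56, and over all 24751 detected genes 7.12% were higher. TNFSF9 was the 1 gene lower in crossbred testis, against 2.92% of all detected genes. The median difference of the 56 genes was -0.27, and that of all detected genes was -0.05. Below 0 lay 32 of the 56, against 53.1% of all detected genes, and 19 lay at -0.5 or less, against 26.2%. Counts and shares use the difference as measured, so TNFSF12 is among the 19 at -1.06, though it is at -0.41 with its dim side at its bound. The families differed among themselves: the 8 detected caspases had a median of -0.68, the 15 BCL2 family genes 0.21, the 11 detected ligands 0.13 and the 15 detected receptors -0.30. In bulk tissue, fewer cells of a type and less RNA per cell cannot be told apart.

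**Figure D1:**
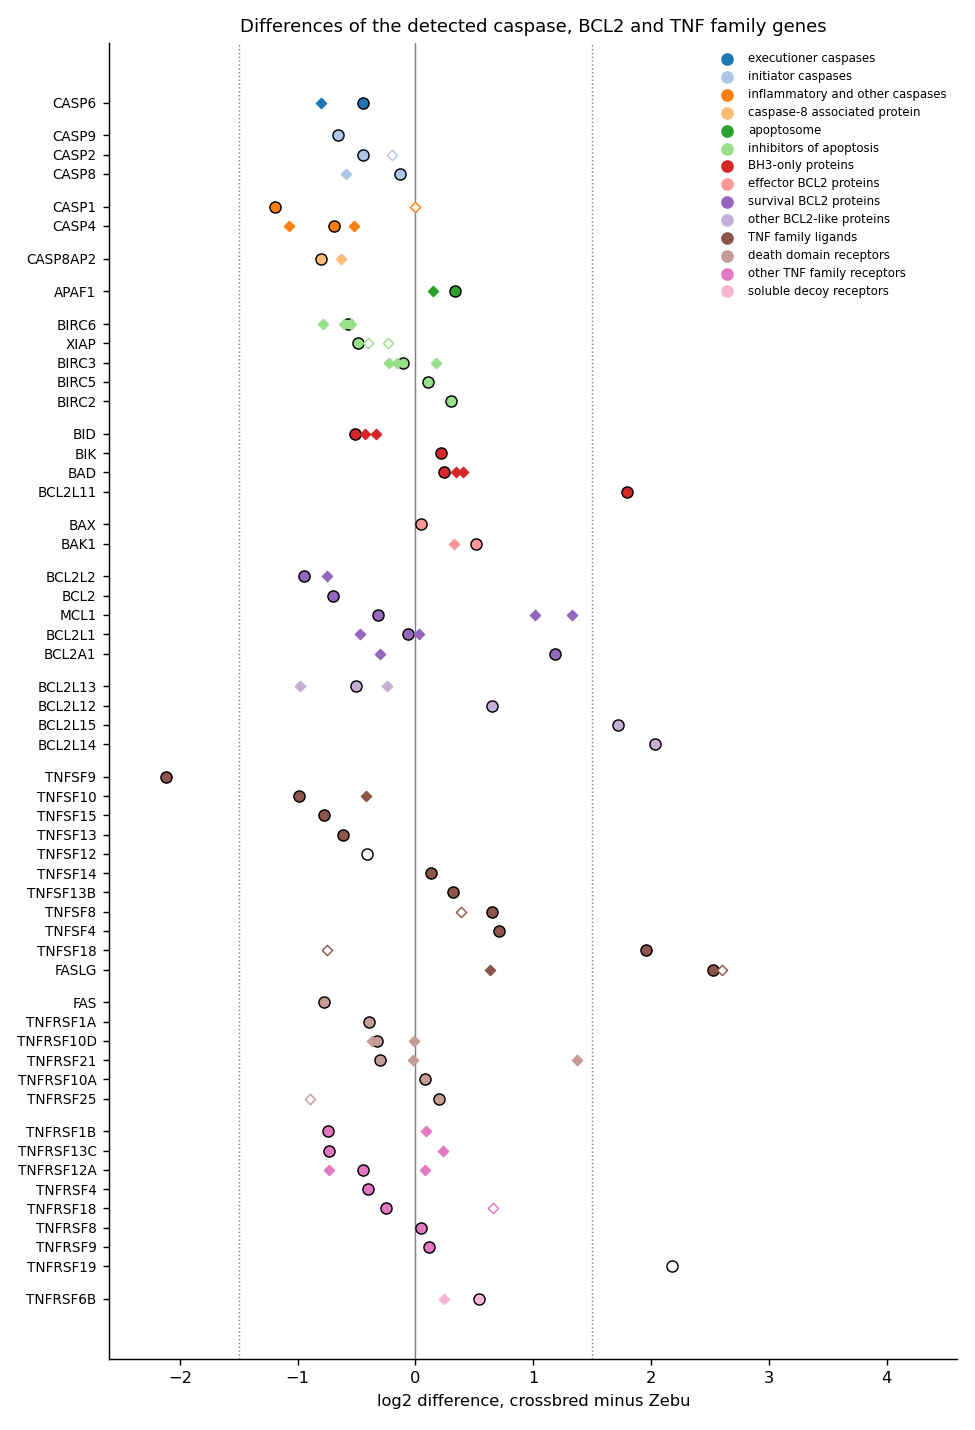
Log2 difference (crossbred minus Zebu, x axis) of the detected member genes reported here, grouped by role on the y axis; circles stand for the brightest probe of a gene, diamonds for its other detected probes, open symbols for probes well above background on 1 array only (drawn at their bound), and dotted lines mark differences of 1.5 in size. All caspases drawn lie to the left of 0 on their brightest probe, 6 circles lie past the right line, TNFSF9 alone lies past the left line, and the probes of MCL1, TNFRSF21, BCL2A1, FASLG and TNFSF18 lie far apart.

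The caspases were lower in the crossbred pool at every detected gene, though none passed the threshold. Of their 8 differences, 5 were at -0.5 or less. Over all detected genes 53.1% lay below 0 and 26.2% at -0.5 or less. All 9 were on the array, and CASP14, known from the epidermis, was the one that was not detected. CASP6, the executioner known for cutting lamins, stood at -0.93 in crossbred and -0.49 in Zebu testis (difference -0.44), and its other probe differed by -0.80. Both CASP6 probes thus lay below 0 by more than the spot SD of 0.34.

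Among the initiators, CASP9, which the apoptosome activates, stood at -0.99 in crossbred and -0.33 in Zebu testis (difference -0.66). CASP8, which death receptors activate, stood at -3.37 against -3.24, a difference of -0.13 that is within the spot SD, while its other detected probe differed by -0.59. CASP2, an initiator linked to stress responses, was dim, at -5.69 against -5.24 (difference -0.44), and a dimmer probe was detected in the Zebu pool only, at least 1.15-fold lower in crossbred testis. CASP1, which matures interleukin-1 beta, stood at -5.01 against -3.81, a difference of -1.19 or 2.28-fold lower. Its other probe was detected in the Zebu pool only, at -7.56 against -5.82, where the Zebu level is under the lowest detectable level of the crossbred array and no fold can be given. CASP4, an inflammatory caspase that senses bacterial lipopolysaccharide, stood at -2.29 against -1.59 (difference -0.70), and its other detected probes differed by -0.53 and -1.08. CASP8AP2, which is not a protease, stood at -0.91 against -0.11 (difference -0.80), and its other probe at -0.63.

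Read by probe, 15 caspase probes were detected. In each of them the crossbred level was below the Zebu level as measured, and the median difference was -0.59. The dimmer CASP1 and CASP2 probes were detected in the Zebu pool only, so they entered through the pool where they were higher. Caspase probes detected in neither pool differed by 0.41 (CASP14), 0.30 (CASP4), and 0.32 and -0.08 (CASP8). With these dim probes counted in, the caspase probes did not all share a sign, and the part of the filter was not tested. Of all 39804 detected probes of the array, 54.6% lay below 0 and the median was -0.07. The brightest caspase probes were poor in G and C, with a median of 38.3% against 45% over all detected genes, and over the array the difference moved with base composition, from a median of -0.22 in probes with up to 30% G and C to 0.19 in those above 60%. With the median of the same G and C class subtracted, a setting added after the values were seen, 7 of the 8 caspases lay below 0 and their median was -0.52.

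**Figure D2:**
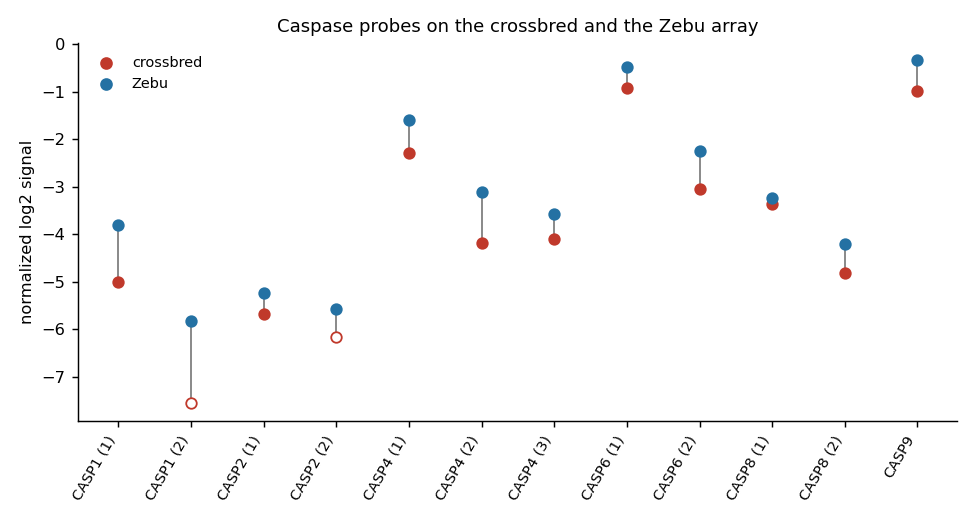
Normalized log2 signal (y axis) of the detected probes of the caspases reported here on the crossbred array (red) and the Zebu array (blue), 1 pool of 3 bulls each, with open symbols where the probe was not well above background; numbers in brackets tell apart probes of 1 gene. The red point lies below the blue point at every probe, most closely at the brightest CASP8 probe.

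The partners of the caspases lay on both sides of 0. APAF1, the scaffold of the apoptosome, stood at 0.72 in crossbred and 0.39 in Zebu testis (difference 0.34), and its other probe differed by 0.15, so both lay above 0 and not beyond the spot SD. Of the 6 inhibitors of apoptosis, 5 were detected, none passed the threshold and their median was -0.11. BIRC6, a giant ubiquitin ligase also called BRUCE or Apollon, stood at -0.25 against 0.33 (difference -0.58), and its 4 detected probes ran from -0.78 to -0.54. XIAP, the inhibitor that binds executioner caspases directly, stood at -3.24 against -2.75 (difference -0.48), and 2 dimmer probes were seen on the Zebu array only, at least 1.17-fold and 1.32-fold lower. BIRC2 and BIRC3, the ubiquitin ligases cIAP1 and cIAP2 of TNF receptor complexes, differed by 0.30 and -0.11, and the 4 BIRC3 probes ran from -0.23 to 0.18. BIRC5, or survivin, a protein of dividing cells, differed by 0.11. The differences of BIRC2, BIRC3 and BIRC5 were within the spot SD.

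All 15 BCL2 family genes were detected, 3 were higher in crossbred testis and none was lower, where 7.12% and 2.92% of all detected genes were, and 9 lay above 0, against 46.8%. The 3 were genes with 1 probe each. BCL2L11, the BH3-only protein BIM that binds every survival protein of the family, stood at 2.35 in crossbred and 0.55 in Zebu testis, a difference of 1.80 or 3.48-fold. BCL2L14, or BCL-G, a divergent relative with an isoform known from human testis, stood at 4.66 against 2.63, a difference of 2.03 or 4.09-fold. BCL2L15, or BFK, stood at -1.65 against -3.37, a difference of 1.72 or 3.29-fold. These differences were several times the spot SD, but none of the 3 has another probe or spot to set beside it.

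The other death-promoting members stayed nearer 0. BID, which caspase-8 cuts to link both routes, stood at -1.02 against -0.50 (difference -0.52), and its other probes differed by -0.34 and -0.43. BAD, whose phosphorylation ties survival to growth factors, stood at 3.43 against 3.19 (difference 0.24), with 0.40 and 0.34 at its other probes. BIK, measured by 2 spots of 1 probe, differed by 0.21. So BID lay below 0 and BAD above 0 at every probe, while BIK differed by less than the spot SD. Of the effectors, BAX stood at -0.76 against -0.81 (difference 0.05) and BAK1 at 0.92 against 0.41 (difference 0.51), with 0.33 at the other BAK1 probe.

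The survival members were mixed, and 4 of their 5 brightest probes lay below 0, where 53.1% of all detected genes did. BCL2L2, or BCL-w, a survival protein that the mouse testis requires, stood at 0.06 in crossbred and 1.003 in Zebu testis, a difference of -0.95 or 1.93-fold lower, and its other detected probe differed by -0.75. BCL2 itself stood at -0.58 against 0.12 (difference -0.70). BCL2L1, or BCL-X, stood at 2.19 against 2.25 (difference -0.06), and its other probes differed by 0.03 and -0.47. BCL2A1, a survival protein of blood cells, stood at -1.47 against -2.65, a difference of 1.18 or 2.27-fold higher, yet its other probe stood at -3.13 against -2.83 (difference -0.30). MCL1, a short-lived survival protein, had opposite differences: the brightest probe stood at 2.70 against 3.02 (difference -0.32), while the others stood at 1.54 against 0.21 (1.33) and at -0.03 against -1.04 (1.01). For MCL1 and BCL2A1 the direction therefore depends on the probe read. BCL2L12 differed by 0.65, and the 3 probes of BCL2L13, a mitochondrial relative linked to mitophagy, differed by -0.50, -0.98 and -0.24.

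Of the 12 ligands 11 were detected, FASLG and TNFSF18 were higher in crossbred testis and TNFSF9 was lower, beside the same shares of 7.12% and 2.92% over the array. FASLG, the ligand of FAS, stood at -2.37 in crossbred and -4.90 in Zebu testis on its brightest probe, a difference of 2.53 or 5.76-fold. The 2 spots of that probe, far apart on the array, gave 2.41 and 2.64. The second probe was detected in the crossbred pool only, at -3.33 against -6.30, at least 6.08-fold higher. The third stood at -4.36 against -4.99, a difference of 0.63. All 3 probes were thus higher in the crossbred pool, the third far less than the others. The second probe entered through the pool where it was higher, so it is no separate sign of agreement. TNFSF18, the ligand of the lymphocyte receptor GITR, stood at -3.55 against -5.51, a difference of 1.96 or 3.89-fold. Its other probe went the opposite way, detected in the Zebu pool only, at -5.98 against -5.03 and at least 1.68-fold lower in crossbred testis. TNFSF9, the ligand of the T cell receptor CD137, stood at -4.09 against -1.98 on its single probe, a difference of -2.11 or 4.33-fold lower.

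**Figure D3:**
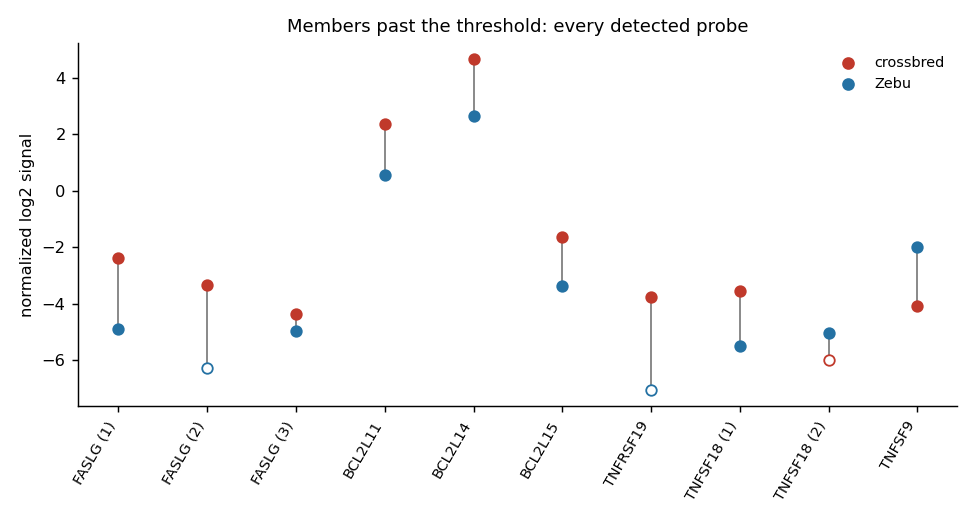
Normalized log2 signal (y axis) of every detected probe of the 7 genes past the threshold, crossbred in red and Zebu in blue, with open symbols where the probe was not well above background. The crossbred point is the upper one at all probes of FASLG, BCL2L11, BCL2L14, BCL2L15 and TNFRSF19, the TNFSF18 probes point in opposite ways, and at TNFSF9 the Zebu point is the upper one.

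The other ligands were dim and passed no threshold. TNFSF10, or TRAIL, a ligand that kills through death receptors, stood at -4.73 in crossbred and -3.74 in Zebu testis (difference -0.99), and its other probe differed by -0.42. TNFSF12, or TWEAK, was detected in the Zebu pool only, at least 1.33-fold lower in crossbred testis. TNFSF13 (APRIL) and TNFSF15 (TL1A) differed by -0.61 and -0.78. Above 0 were TNFSF4, the OX40 ligand, at 0.71 (its 2 spots gave 0.60 and 0.82), TNFSF8, the CD30 ligand, at 0.65, TNFSF13B, the B cell factor BAFF, at 0.32, and TNFSF14, or LIGHT, at 0.13. The last pair differed by less than the spot SD.

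Of the 17 receptors 15 were detected, and only TNFRSF19 was past the threshold, as a higher gene (all detected genes 7.12%). TNFRSF19, or TROY, an orphan receptor linked to WNT target genes and stem cells, stood at -3.77 in crossbred testis and at -7.06 in Zebu testis, where it was not well above background, so it was at least 4.51-fold higher. FAS stood at -4.22 against -3.45, a difference of -0.77 or 1.71-fold lower. TNFRSF1A, the ubiquitous TNF receptor with a death domain, stood at 1.27 against 1.67 (difference -0.40). TNFRSF1B, the TNF receptor of immune and endothelial cells, stood at -0.90 against -0.16 (difference -0.74), and its other probe differed by 0.09. TNFRSF21, or death receptor 6, stood at 0.84 against 1.15 (difference -0.30), but another of its probes stood at -1.42 against -2.79, a difference of 1.37, and the last at -0.02. The remaining receptors lay between -0.74 (TNFRSF13C, the BAFF receptor) and 0.54 (TNFRSF6B, a soluble decoy that binds FAS ligand), and the other TNFRSF13C probe differed by 0.23.

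Set beside their receptors, the ligands past the threshold had partners that were not. FASLG differed by 2.53 and FAS by -0.77. TNFSF18 differed by 1.96 on its brightest probe and TNFRSF18 by -0.25, with the other TNFRSF18 probe seen on the crossbred array only, at least 1.58-fold higher. TNFSF9 differed by -2.11 and TNFRSF9 by 0.12. TNFRSF10D, a TRAIL receptor by name, differed by -0.33, with -0.37 and -0.02 at its other detected probes. The probe named TNFRSF10A, whose gene is uncertain because the name is not in the gene table, differed by 0.08. TNFRSF12A, the receptor of TWEAK, differed by -0.45, and its other probes by 0.08 and -0.73. TNFRSF25, which binds TL1A, differed by 0.20, with its other probe seen in the Zebu pool only, at least 1.86-fold lower. TNFRSF4 and TNFRSF8, the receptors of TNFSF4 and TNFSF8, differed by -0.40 and 0.05. The system of RANKL (TNFSF11), its receptor RANK (TNFRSF11A) and the decoy osteoprotegerin (TNFRSF11B) was not detected in either pool.

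The probes of a gene were compared with each other. Of the 102 detected member probes, 7 were higher in crossbred testis, against 6.14% of all detected probes, and 2 were lower as measured, against 2.99%: that of TNFSF9 and the dimmer CASP1 probe, which has no fold because its crossbred side is only a bound. Of the 24 genes with several probes well above background on both arrays, 16 had all differences of 1 sign and 8 were mixed, where over all such genes of the array 33.2% were mixed. In 4 of the 24 (FASLG, MCL1, TNFRSF21 and BCL2A1) the differences spanned more than 1, against 17.3% over the array, and the median span was 0.43 against 0.39. In FASLG, MCL1 and TNFRSF21 the probe nearest the 3′ end of the target had the lowest difference: the upstream probe exceeded the downstream one by 1.90, 1.33 and 1.67. In BCL2A1 it was the reverse, at -1.48. Over 23 member transcripts with probes at different starts, the upstream minus downstream difference had a median of 0.09, over 1 in 3 and under -1 in 1, while over all 7789 such transcripts the median was 0.07, with 9.09% over 1 and 2.81% under -1. The labelling was primed with oligo dT from the 3′ end of the message, and its part in these differences was not tested. The hexamer AATAAA, the usual polyadenylation signal, was found by its letters on the probe strand in 5.04% of the member probes and 8.35% of all probes, and in none of those printed here. Probes of 1 gene share a target and are not replicates, and 2 TNFRSF10D probes share a run of 49 bases.

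**Figure D4:**
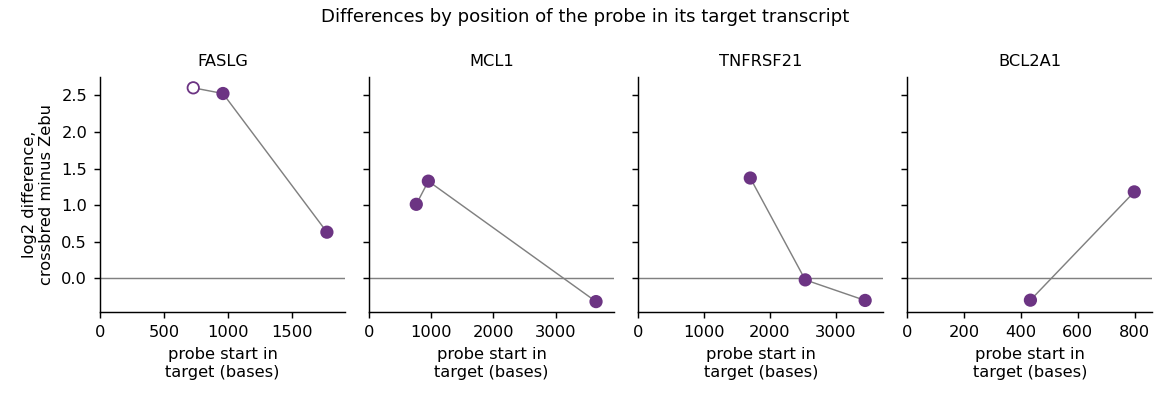
Log2 difference (crossbred minus Zebu, y axis) of each detected probe against its start in the target transcript in bases (x axis) for the 4 genes whose probes spanned more than 1; the open symbol is drawn at its bound. The probe nearest the 3′ end has the lowest difference in FASLG, MCL1 and TNFRSF21, where MCL1 is highest at its middle probe, and the higher one in BCL2A1.

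The place of each member spot on the array was read as well. The crossbred array has a rectangle of dark spots and one of bright spots relative to the Zebu array. Only 1 member spot lay in the dark rectangle, that of a CASP8 probe not well above background in either pool, and none lay in the bright one. The FAS spot (row 98, column 47) was 1 column outside the dark rectangle and the brighter TNFSF18 spot (row 152, column 55) 1 row outside the bright one. The spots around these 2 had median differences of 0.09 and 0.18 over up to 18 neighbours. Around other member spots this median ran from -0.62 (TNFRSF9, difference 0.12) to 0.68 (dimmer TNFSF18 probe, difference -0.96). It was -0.54 around the brightest TNFRSF21 probe, which differed by -0.30. The part of such surroundings in the differences was not tested. No member spot was saturated or marked as an outlier.

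Of 72 further genes of the same pathways, 68 were on the array and 64 were detected, with a median difference of -0.26 (all detected genes -0.05) and 43 below 0 (all 53.1%). LTA, lymphotoxin alpha, a TNF ligand outside the name rule, was the 1 gene higher in crossbred testis, at -2.73 against -4.84 (difference 2.11). NGFR, the p75 neurotrophin receptor, was lower, at 0.03 against 1.59 (difference -1.57), with -1.49 at another probe, and NFKB2, a subunit of the noncanonical NF-kappaB pathway, was detected in the Zebu pool only, at least 3.76-fold lower. These 3, each read from its brightest probe, are to be read against the same shares of 7.12% and 2.92%. CYCS, or cytochrome c, differed by -0.40 on its brightest probe and by -2.38 on another. BAG6 differed by 0.23 on its brightest probe and by -2.47 and 0.66 on others.

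Markers of the cell types of the testis differed between the same arrays. All 9 spermatid markers were detected and lay above 0, with a median difference of 1.71, and their summed level, in multiples of the 75th percentile of the array, was 552 in crossbred and 284 in Zebu testis. The 6 spermatocyte markers on the array lay above 0 too (median 0.45, sums 22.9 and 17.5). All 7 Sertoli, 6 Leydig and 5 peritubular markers on the array lay below 0, with medians of -1.08, -0.79 and -0.77 and sums of 132 against 208, 87.8 against 133 and 29.3 against 51.6. The 7 spermatogonium markers had a median of -0.62 (sums 36.5 and 46.7). Of the 7 T cell markers, 6 lay below 0 (median -0.56, sums 7.55 and 9.70), while the 5 B and plasma cell markers lay above 0 (median 0.75, sums 2.17 and 1.24), MS4A1 on the crossbred array only. CD3D and CD3G lay at -0.56 on their brightest probes. Other CD3D probes lay at 0.13 and 0.55, other CD3G probes at -0.14 and 0.36, and the other CD247 probe at -0.92. The 5 endothelial markers had a median of 0.08 (sums 0.951 and 0.974) and the 5 macrophage markers 0.20 (sums 17.9 and 9.32), of which AIF1 differed by 1.95. Every marker on the array was detected in 1 pool or both. The part of cell composition in the differences of the caspases, of the BCL2 family and of the ligands was not tested, and with 1 pool per group it cannot be told apart from the breed.

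**Figure D5:**
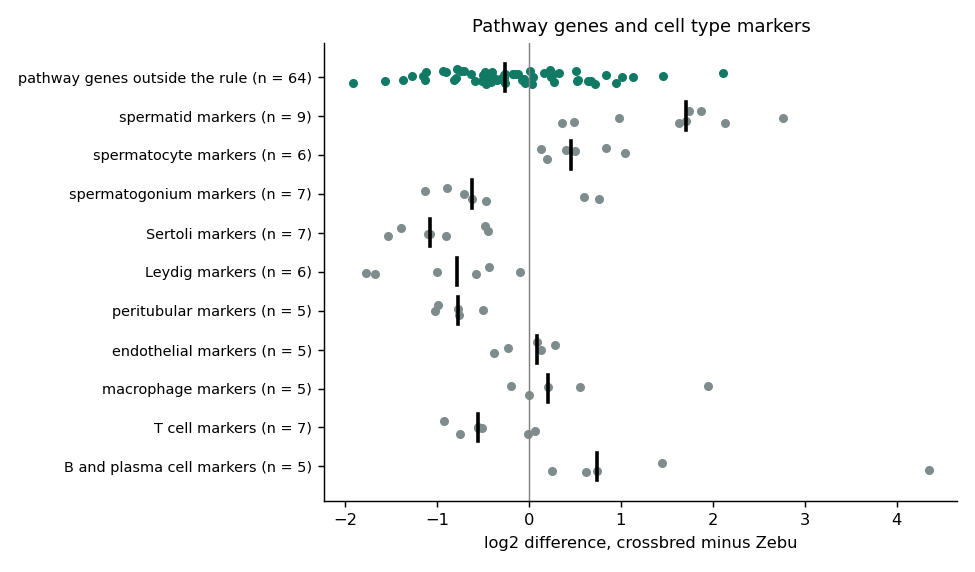
Log2 difference (crossbred minus Zebu, x axis) of each detected gene of the pathway list outside the name rule and of each cell type marker list (y axis, number of genes in brackets); dots are genes, drawn at their bound where 1 array was not well above background, and black bars are medians. Spermatid markers lie to the right of 0, Sertoli, Leydig and peritubular markers to its left, and the pathway genes on both sides.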

How the data were processed

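The authors deposited the scanner output of Agilent Feature Extraction 11.5.1.1 for each array, and the processed signal used here is an intensity from which, per the file headers, background had been subtracted. They also deposited log2 values shifted by the 75th percentile, which 98.8% and 98.9% of the probes here matched within 0.01 after a constant offset. Spots of a probe were averaged on the log2 scale, 13 outlier spots were left out, and the 75th percentile over non-control probes was subtracted. For medians and folds, the dim side of a probe seen on 1 array was set to the higher of its own level and the lowest level well above background. Counts past a threshold or on a side of 0 used the difference as measured. Each gene was 1 gene name, read from its brightest probe. The genes named were those past a difference of 1, those in the study's list of differing transcripts, which was chosen on these arrays, and the core of the pathway. A few of those names are not reported. The members and lists were chosen with earlier results of these data known. The groups were compared without a test, and 13 alternatives were tried: normexp in limma 3.58.1, other shifts and quantile normalization, the authors' log2 values, other filters on dim probes, the mean of all probes, spots left out by place, other thresholds, and a subtraction by G and C class. Scripts ran in Python 3.11.15 and R 4.3.3 and were tested on simulated data.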

Additional observations from a re-analysis of the deposited data

How the results depend on the processing

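Among 13 alternatives, the subtraction of the G and C class was added after the values were seen. No alternative turned a gene past the threshold to the opposite direction. Under normexp background correction with an offset of 50, which adds the same offset to dim and bright signals, 3 genes (BCL2L11, BCL2L14 and FASLG) were higher and 0 lower. Without a filter on dim probes 2 were lower (TNFRSF11B was added). At a threshold of 1, 4 were lower, and at a linear fold of 1.5, 10 were higher and 16 lower. TNFSF12 was among these lower genes only by its difference as measured. The median of the members stayed between -0.30 and -0.08 and that of the caspases between -0.70 and -0.52. Of 394 recomputed differences of named genes, 378 moved by less than the spot SD. Many of these could hardly move, because a shift adds a constant and few member spots lay in the places left out. The 16 that moved more did so under normexp (8, with 28 not), the mean of all probes (6, with 30 not) and no filter on dim probes (2, with 34 not). Under normexp FASLG was at 1.51, TNFRSF19 at 0.98, TNFSF18 at 0.78 and TNFSF9 at -1.38; with the mean of all probes TNFSF18 was at 0.60 and MCL1 at 0.67. Dim caspases moved as well: under normexp CASP1 was at -0.53 and CASP2 at -0.02, and with the mean of all probes CASP1 was at -0.60. Signal over background limits the dim genes most, caspases among them. No paired analysis was possible because each group has 1 array.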
